A study of Mus musculus with 10 samples.

Results

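Hepatic stellate cells are the vitamin A storing pericytes of the liver. They lie in the space between the sinusoidal endothelium and the hepatocytes. When activated they lose their retinoid stores, become contractile myofibroblasts and deposit fibrillar collagen, the scar tissue of liver fibrosis. A fixed list of 36 genes of this cell and of its matrix was followed here in arrays of liver sinusoidal endothelial cells, of 24704 genes measured in all. The list holds 14 genes that mark stellate cells or pericytes, 3 genes of the contractile apparatus, and genes of fibrillar collagens, type VI collagen, small leucine-rich proteoglycans, and elastic fibres with their cross-linking enzymes. Its members were taken by gene symbol and were chosen with earlier results of these data known. Values were obtained for 35 of the 36, and Fbn1 was not analysed here.

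The arrays hold RNA of primary liver sinusoidal endothelial cells from mice. In the group labelled Gata4-LSEC-KO, called knockout here, mice carrying a Clec4g-icre transgene were crossed to mice with a floxed Gata4 gene, so that deletion is driven from control sequences of Clec4g, a gene of sinusoidal endothelium. The other group holds sibling controls, which the labels call WT. Beyond that label, the sources used here do not give which of these alleles the controls carry, nor the age and sex of the mice. Each array is a pool of 3 mice, and there are 5 arrays per group. Cells were freed with collagenase, taken from a density gradient and selected with magnetic beads against CD146, to obtain endothelium. The share of stellate cells left in the preparations was not analysed here. The comparison asks how the loss of endothelial Gata4 changes the RNA of these preparations. Stellate RNA in them can come from cells that were carried along, and in bulk RNA fewer cells of a type and less RNA per cell cannot be told apart.

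The series as a whole is summarised first. Values are log2 array values whose median was 3.71 on every array, and with 1 colour and no counts their precision is limited by the number of arrays. The Gata4 probe set overlapped between the groups: it read 8.35 to 8.90 in the knockout and 8.53 to 8.90 in the control, with a difference of -0.12 ± 0.13 (SE, log2; adjusted p = 0.742 by limma). The position of its probes relative to the deleted part was not analysed here, so it does not check the labels. Defining endothelial genes were bright on all 10 arrays, with Cdh5 between 11.10 and 11.84. Stab2 lay between 10.34 and 10.99 in the knockout and between 11.02 and 11.48 in the control. Its difference was -0.55 ± 0.15 (adjusted p = 0.0974 by limma). Control replicate 1 was the array least like the rest: its correlations across genes were 0.920 to 0.944, against 0.969 to 0.988 among the other 9. It is also low in many stellate genes, and the difference without it is given for each gene whose sign it turns or whose difference it moves by over 1.5 times, and for some others. Of all genes, 2.14% passed the threshold of an adjusted p of 0.05 by limma, 1.30% of them higher and 0.846% lower in the knockout when counted by direction.

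Among the 35 genes, 1 passed that threshold, Vim, and it was higher in the knockout. This share lies near that of all genes. The stellate markers as a set showed no common direction: of 14, 8 lay above 0 and 6 below, with a median log2 fold change of 0.14. The contractile and matrix genes lay mostly above 0, 18 of 21, with a median of 0.35, where the median of all genes was -0.02 and 44.8% of them lay above 0. Without control replicate 1 the stellate markers had 6 of 14 above 0 and a median of -0.27, and the contractile and matrix genes 15 of 21 and a median of 0.32. In 3 of the 35, Vim, Des and Col1a1, every knockout array read above every control array, and in none did every knockout array read below. For Vim, knockout replicate 1 (9.964) and control replicate 2 (9.963) nearly tied. Of all genes 2.55% were separated upward and 2.37% downward, 4.93% in either direction. At an unadjusted p of 0.05, 9 were higher and 1 lower, where 7.07% and 6.57% of all genes were. Members of the list share cells of origin and vary together, so these counts are not counts of independent genes. The members were also chosen with earlier results of these data known. Their counts and medians beside those of all genes are therefore a description and no test of a shift.

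**Figure D1:**
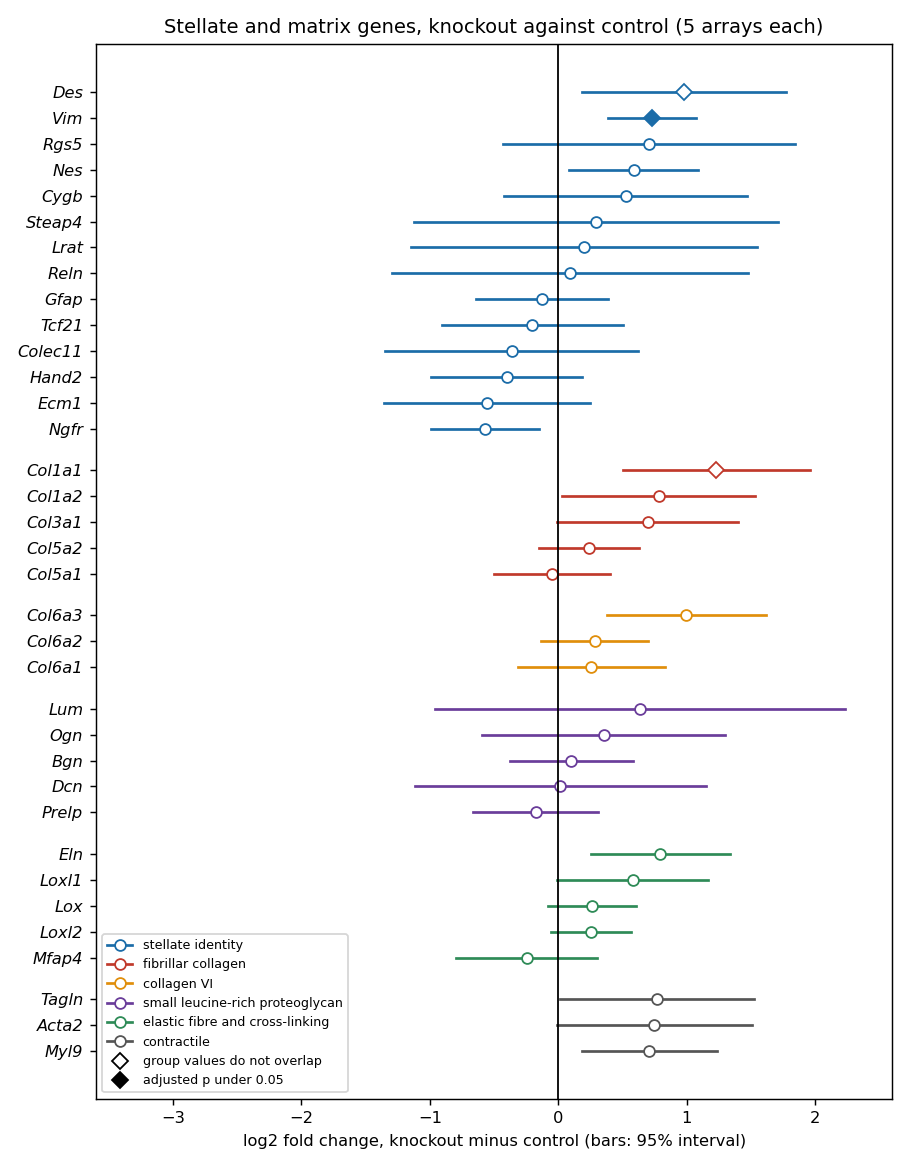
Log2 fold change (knockout minus control) of the 35 measured genes, by role, with 95% intervals from limma. Diamonds mark genes whose group values do not overlap (Des, Vim and Col1a1), and the filled symbol marks the gene past the threshold (Vim); the widest intervals are those of Lum, Steap4, Reln and Lrat.

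Promoter sequences are printed for the genes on which the results below turn. Vim and Des are shown because their group values do not overlap. The same holds for Col1a1, but no promoter was found for it. Ecm1 and Colec11 are shown because they passed, both lower, only in fits with the mean of other stellate genes as a covariate. These fits were added after the values were seen. Acta2 and Myl9 are shown because these contractile genes varied together from array to array. The sequences are the 250 bases before the annotated start, from RefSeq on build GRCm38.p6. They were searched on both strands for GATAA, a core of the sites bound by GATA factors, which reads TTATC on the other strand, for the CArG box of serum response factor, and for TATAA, whose reverse complement is TTATA. Capitals mark the matches. Forward and reverse TATAA matches that overlap, as in Vim, were each counted. Vim lies on chr2:13574061-13574310 (+ strand), Des on chr1:75360042-75360291 (+ strand), Ecm1 on chr3:95739570-95739819 (- strand), Colec11 on chr12:28623331-28623580 (- strand), Acta2 on chr19:34255374-34255623 (- strand) and Myl9 on chr2:156775214-156775463 (+ strand).
Vim: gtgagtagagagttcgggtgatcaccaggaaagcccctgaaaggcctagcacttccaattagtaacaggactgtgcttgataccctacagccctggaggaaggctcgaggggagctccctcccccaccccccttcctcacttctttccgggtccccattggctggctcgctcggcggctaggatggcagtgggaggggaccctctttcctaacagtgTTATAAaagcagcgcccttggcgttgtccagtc
Des: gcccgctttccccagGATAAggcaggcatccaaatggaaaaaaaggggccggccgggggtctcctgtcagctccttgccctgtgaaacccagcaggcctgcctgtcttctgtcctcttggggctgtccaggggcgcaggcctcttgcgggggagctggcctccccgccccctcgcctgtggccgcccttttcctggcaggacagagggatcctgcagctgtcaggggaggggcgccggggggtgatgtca
Ecm1: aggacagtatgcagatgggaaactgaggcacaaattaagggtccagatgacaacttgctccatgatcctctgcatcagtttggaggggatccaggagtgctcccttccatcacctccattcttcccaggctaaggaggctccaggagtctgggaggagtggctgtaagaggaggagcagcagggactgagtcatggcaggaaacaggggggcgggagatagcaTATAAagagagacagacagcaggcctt
Colec11: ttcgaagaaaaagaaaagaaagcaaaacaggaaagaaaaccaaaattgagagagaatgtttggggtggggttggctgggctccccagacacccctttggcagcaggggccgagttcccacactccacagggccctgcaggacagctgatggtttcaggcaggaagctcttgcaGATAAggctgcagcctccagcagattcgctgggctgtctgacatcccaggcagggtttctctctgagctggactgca
Acta2: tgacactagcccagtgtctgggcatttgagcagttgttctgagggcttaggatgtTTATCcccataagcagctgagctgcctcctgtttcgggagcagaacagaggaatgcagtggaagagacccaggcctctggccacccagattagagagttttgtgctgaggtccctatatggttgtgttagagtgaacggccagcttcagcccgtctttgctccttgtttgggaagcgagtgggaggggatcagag
Myl9: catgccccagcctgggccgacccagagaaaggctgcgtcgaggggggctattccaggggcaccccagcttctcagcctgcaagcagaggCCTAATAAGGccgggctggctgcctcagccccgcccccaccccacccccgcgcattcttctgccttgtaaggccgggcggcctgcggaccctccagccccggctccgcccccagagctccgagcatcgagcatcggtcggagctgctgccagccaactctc
A promoter was found for 24 of the 35 genes. GATAA was present in 7 of them (Acta2, Col6a2, Colec11, Des, Hand2, Rgs5 and Tcf21), where 22.6% of all 32851 promoters of this length hold it. In Des the match starts 235 bases before the annotated start and in Colec11 77 bases before it. The CArG box was searched in its strict form, CC, a run of only A or T, then GG. This form was found in Myl9, 161 bases before the start, and in 1.47% of all promoters. Looser forms with a G or C in the run were not counted. The Acta2 sequence holds such forms, ccctatatgg and ccttgtttgg. TATAA was present in 6 of the 24 and in 22.8% of all promoters. In Vim and Ecm1 it lies 32 and 27 bases before the start, the usual place of a TATA box. A match is a description of these letters and shows no binding.

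The stellate identity genes are taken first. Lrat encodes the enzyme that esterifies retinol for storage and is a defining stellate marker. In the knockout it read 4.91, 7.46, 6.13, 4.70 and 6.58 on replicates 1 to 5, and in the control 4.01, 5.69, 5.49, 6.78 and 6.83. Both groups spanned nearly the same range, with a difference of 0.20 ± 0.61 (SE, log2; adjusted p = 0.926 by limma). Without control replicate 1 the difference was -0.24, so its sign rests on that array. Reln, the secreted glycoprotein reelin, which stellate cells make in the liver, read 7.01, 8.24, 8.12, 5.93 and 8.06 in the knockout and 5.19, 7.64, 7.11, 8.59 and 8.37 in the control. Its difference was 0.09 ± 0.63, with a 95% interval from -1.30 to 1.48, and -0.46 without control replicate 1. Knockout replicates 1 and 4 and control replicate 1 were the low arrays in both genes.

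Colec11, a collectin made by quiescent stellate cells, read 6.45, 7.95, 7.04, 5.93 and 6.94 in the knockout and 5.97, 7.08, 6.86, 8.18 and 8.04 in the control. The groups overlapped widely, at -0.36 ± 0.45 (adjusted p = 0.781). Single arrays moved the difference both ways, to -0.68 without control replicate 1 and -0.13 without control replicate 4. Ecm1, a secreted matrix protein that holds TGF-beta in its latent form, was at -0.55 ± 0.37 (adjusted p = 0.571), and at -0.79 without control replicate 1 and -0.36 without control replicate 4. Its values were 8.51, 9.82, 9.21, 8.10 and 9.21 in the knockout against 8.60, 9.54, 9.14, 10.28 and 10.06 in the control. Ngfr, the low-affinity nerve growth factor receptor, had a difference of -0.57 ± 0.19 (adjusted p = 0.188) and Hand2, a transcription factor of stellate and other mesenchymal cells, one of -0.40 ± 0.27. Tcf21, another mesenchymal transcription factor, was at -0.20 ± 0.32, and at -0.44 without control replicate 1. Gfap, an intermediate filament gene of astrocytes and stellate cells, averaged 3.58 ± 0.44 and 3.71 ± 0.39 (SD, n = 5), near the array median, and a ratio at that level is not one of RNA amounts. Its difference of -0.13 turned to 0.0306 without control replicate 1. Above 0 but far from the threshold lay Rgs5, a pericyte regulator of G protein signalling (0.70 ± 0.52), the stellate globin Cygb (0.52 ± 0.43) and the metalloreductase Steap4 (0.30 ± 0.65). Most of these differences rested on control replicate 1, without which Rgs5 was at 0.15, Cygb at 0.17 and Steap4 at -0.30.

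The intermediate filament genes Vim, Des and Nes are described together. Vim encodes vimentin, the intermediate filament protein of mesenchymal and also of endothelial cells. It read 9.96, 10.59, 10.60, 10.50 and 10.27 in the knockout and 9.30, 9.96, 9.70, 9.74 and 9.56 in the control. Every knockout array lay above every control array, but the closest pair, knockout replicate 1 (9.964) and control replicate 2 (9.963), nearly tied. The rise was 1.66-fold (log2 fold change 0.73 ± 0.16, adjusted p = 0.0375 by limma). Leaving out any of knockout replicates 2 to 5 or control replicates 3 to 5 ended the call, with an adjusted p of up to 0.101, while the log2 fold change stayed between 0.64 and 0.83. Since endothelial cells express it too, the array cannot say which cells carried the rise.

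Des encodes desmin, the intermediate filament of muscle and of rodent stellate cells. In the knockout it read 6.04, 6.70, 6.02, 5.95 and 5.85, and in the control 3.59, 5.73, 5.62, 5.49 and 5.24. All knockout values exceeded all control values, but control replicate 1 alone sat far under the rest. The log2 fold change was 0.98 ± 0.36 with an adjusted p of 0.241, and 0.59 with an adjusted p of 0.110 without that array. Nes, nestin, an intermediate filament of activated stellate cells and of angiogenic endothelium, lay at 0.59 ± 0.23 (adjusted p = 0.276).

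**Figure D2:**
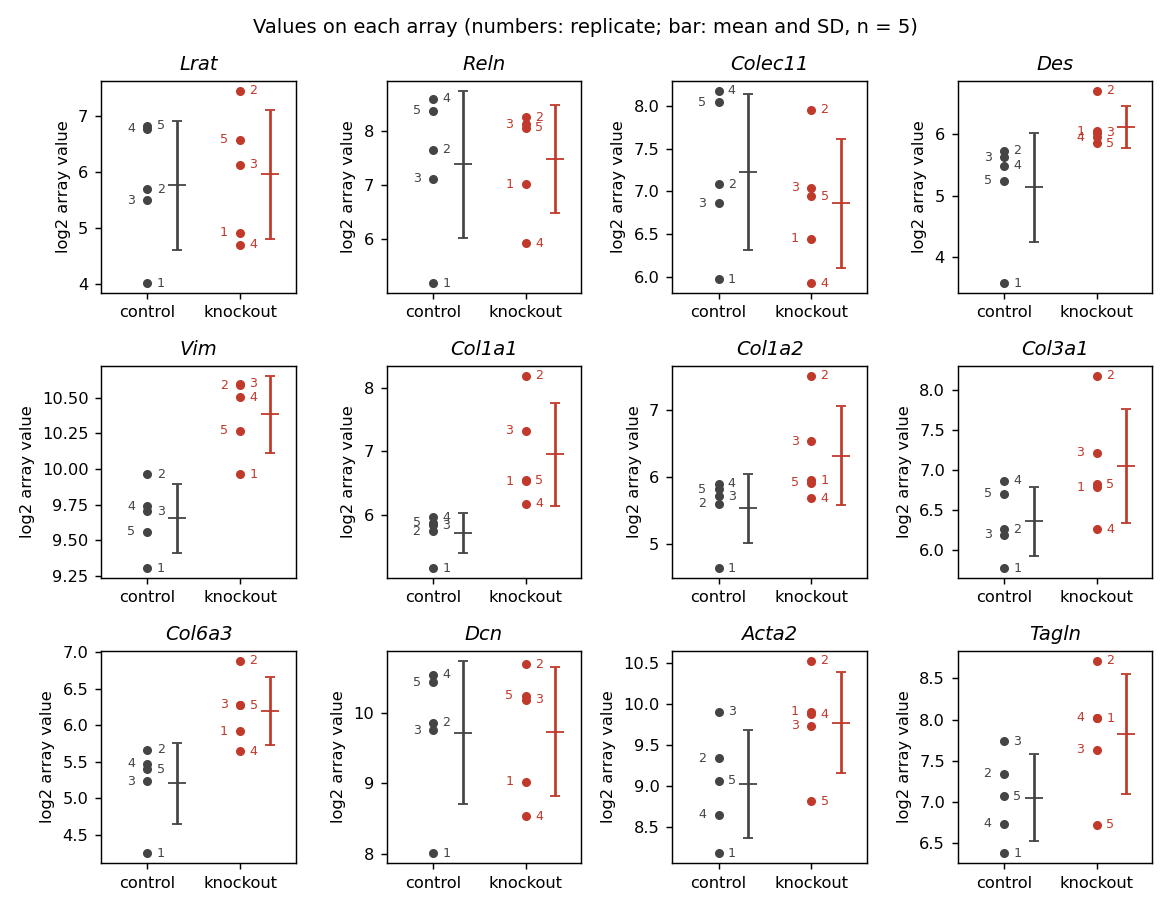
Log2 values of 12 of the genes on each array, with replicate numbers beside the points and the group mean and SD at the right (n = 5). Vim, Des and Col1a1 separate the groups, Vim with a near tie between its closest arrays, while Lrat, Reln, Colec11 and Dcn span similar ranges in both. Control replicate 1 is the lowest control array in all 12.

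Fibrillar collagens form the bulk of scar matrix. Col1a1 and Col1a2 encode the chains of type I collagen and Col3a1 that of type III. Col1a1 read 6.53, 8.18, 7.32, 6.18 and 6.55 in the knockout and 5.17, 5.75, 5.84, 5.97 and 5.89 in the control. The groups did not overlap. The knockout arrays also spread more widely, at 6.95 ± 0.80 against 5.72 ± 0.32 (SD, n = 5), with replicate 2 the highest. The difference was 2.34-fold (log2 fold change 1.23 ± 0.33, 95% interval 0.50 to 1.96), the largest of the 35 genes, and did not pass the threshold by limma (adjusted p = 0.0951). Leaving out single arrays moved it between 0.92 and 1.42, the lowest being without knockout replicate 2, and the adjusted p between 0.0722 and 0.184.

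Col1a2 read 5.95, 7.50, 6.53, 5.69 and 5.91 in the knockout and 4.65, 5.60, 5.71, 5.90 and 5.82 in the control. Here 1 knockout array, replicate 4, fell among the controls, and the difference was 0.78 ± 0.34 (adjusted p = 0.342). Col3a1 read 6.78, 8.18, 7.21, 6.26 and 6.82 in the knockout and 5.77, 6.25, 6.19, 6.86 and 6.70 in the control, a difference of 0.69 ± 0.32 (adjusted p = 0.377). The chains of type V collagen, which sets fibril diameter, showed less: Col5a1 was at -0.05 ± 0.21 and Col5a2 at 0.24 ± 0.18. Without control replicate 1 Col5a1 was at 0.087, Col1a2 at 0.56 and Col3a1 at 0.55, and without knockout replicate 2 Col1a2 was at 0.48 and Col3a1 at 0.41. Knockout replicate 2 was the highest knockout array for all 5 fibrillar chains. Col3a1 and Col5a2 are neighbouring genes with no measured gene between them, and their intervals (-0.01 to 1.40 and -0.15 to 0.63) overlap.

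Type VI collagen forms beaded filaments around cells from 3 main chains. Col6a3 read 5.92, 6.88, 6.28, 5.64 and 6.27 in the knockout and 4.25, 5.67, 5.24, 5.47 and 5.40 in the control, so that only knockout replicate 4 fell under the highest control array. Its log2 fold change was 0.99 ± 0.28 (adjusted p = 0.111), and 0.75 without control replicate 1. The partner chains Col6a1 (0.25 ± 0.26) and Col6a2 (0.28 ± 0.19) lay closer to 0, although all 3 chains assemble into 1 protein. Without control replicate 1 the adjusted p of Col6a3 was 0.0950.

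Small leucine-rich proteoglycans bind collagen fibrils and are made by quiescent as well as activated stellate cells. Dcn, decorin, read 9.03, 10.69, 10.19, 8.53 and 10.24 in the knockout and 8.004, 9.86, 9.75, 10.55 and 10.44 in the control. The groups overlapped over most of their range, with a log2 fold change of 0.02 ± 0.52 and a 95% interval from -1.12 to 1.15. Lum, lumican, the neighbour of Dcn among the measured genes, had the largest standard error of the 35, with values from 3.25 in control replicate 1 to 8.05 in knockout replicate 2, and a difference of 0.64 ± 0.73. Bgn, biglycan, was bright and similar in both groups (11.22 ± 0.24 and 11.12 ± 0.49, SD, n = 5). Prelp (-0.18 ± 0.22) and Ogn, osteoglycin (0.35 ± 0.43), did not pass either. Without control replicate 1 all 5 proteoglycan genes lay below 0, with a median of -0.11. Dcn was then at -0.41, Prelp at -0.33, Bgn at -0.11, Ogn at -0.0496 and Lum at -0.0485.

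Elastic fibres consist of elastin on a microfibril scaffold and are cross-linked by lysyl oxidases. Eln, elastin, read 5.53, 6.45, 6.47, 5.94 and 6.53 in the knockout and 6.04, 5.46, 5.53, 4.96 and 4.96 in the control. Unlike most of the list it was highest among controls in replicate 1. Its log2 fold change was 0.79 ± 0.25 (adjusted p = 0.151), and 0.96 with an adjusted p of 0.0424 without control replicate 1, where 2.98% of all genes passed (1.59% higher, 1.39% lower) and Eln and Vim were the 2 of the 35 that did. Array weights, which give less weight to outlying arrays, brought Eln past the threshold too (0.91, adjusted p = 0.0292 by limma). In that fit 1070 of all 24704 genes passed, against 529 without weights. Both settings act on outlying arrays, so they are not separate checks. Eln passed in 1 of the 10 fits without a single array, and not with the replicate block (adjusted p = 0.285). The cross-linking enzymes Loxl1 (0.58 ± 0.27), Lox (0.26 ± 0.16) and Loxl2 (0.26 ± 0.14) lay above 0 and did not pass. Mfap4, a microfibril protein, was at -0.25 ± 0.25, and at -0.055 without control replicate 1.

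Contractile genes mark myofibroblasts and vascular smooth muscle alike. Acta2, smooth muscle actin, read 9.91, 10.53, 9.74, 9.88 and 8.81 in the knockout and 8.18, 9.34, 9.91, 8.65 and 9.06 in the control. Tagln, the actin-binding transgelin, read 8.02, 8.71, 7.63, 8.02 and 6.72 against 6.38, 7.34, 7.74, 6.74 and 7.07. Both overlapped between the groups, since knockout replicate 5 was low and control replicate 3 high. The differences were 0.75 ± 0.35 for Acta2 (adjusted p = 0.378), 0.77 ± 0.34 for Tagln (adjusted p = 0.356) and 0.71 ± 0.24 for Myl9, the regulatory myosin light chain (adjusted p = 0.190). In the same order they were 0.53, 0.60 and 0.58 without control replicate 1, and 0.56, 0.55 and 0.57 without knockout replicate 2. Without knockout replicate 5 they were 0.99, 1.04 and 0.86 and did not pass either (adjusted p = 0.163, 0.101 and 0.0925).

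The arrays did not rank alike for all roles. Over the 35 genes, knockout replicate 2 was the highest knockout array for 27 and replicate 4 the lowest for 23, while control replicate 1 was the lowest control array for 25 and replicate 4 the highest for 14. Over all genes these shares were 18.3%, 18.1%, 35.0% and 17.0%. The list was chosen with earlier results of these data known, among them that control replicate 1 is low in these genes. Setting the counts beside these shares is therefore a description and no test. The contractile genes shared part of this order: in all 3 control replicate 1 was the lowest control array and knockout replicate 2 the highest knockout array. They differed at the opposite ends, where in all 3 the highest control array was replicate 3 and the lowest knockout array replicate 5. Smooth muscle genes outside the list were alike at these opposite ends, with control replicate 3 highest in 7 of 11 and knockout replicate 5 lowest in 8 of 11. The stellate identity genes had control replicate 4 highest in 8 of 14 and knockout replicate 4 lowest in 10 of 14. The stellate identity genes averaged 6.72 ± 0.52 over knockout arrays and 6.58 ± 0.67 over control arrays (SD, n = 5), and that of the contractile genes 8.54 ± 0.58 and 7.80 ± 0.54.

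**Figure D3:**
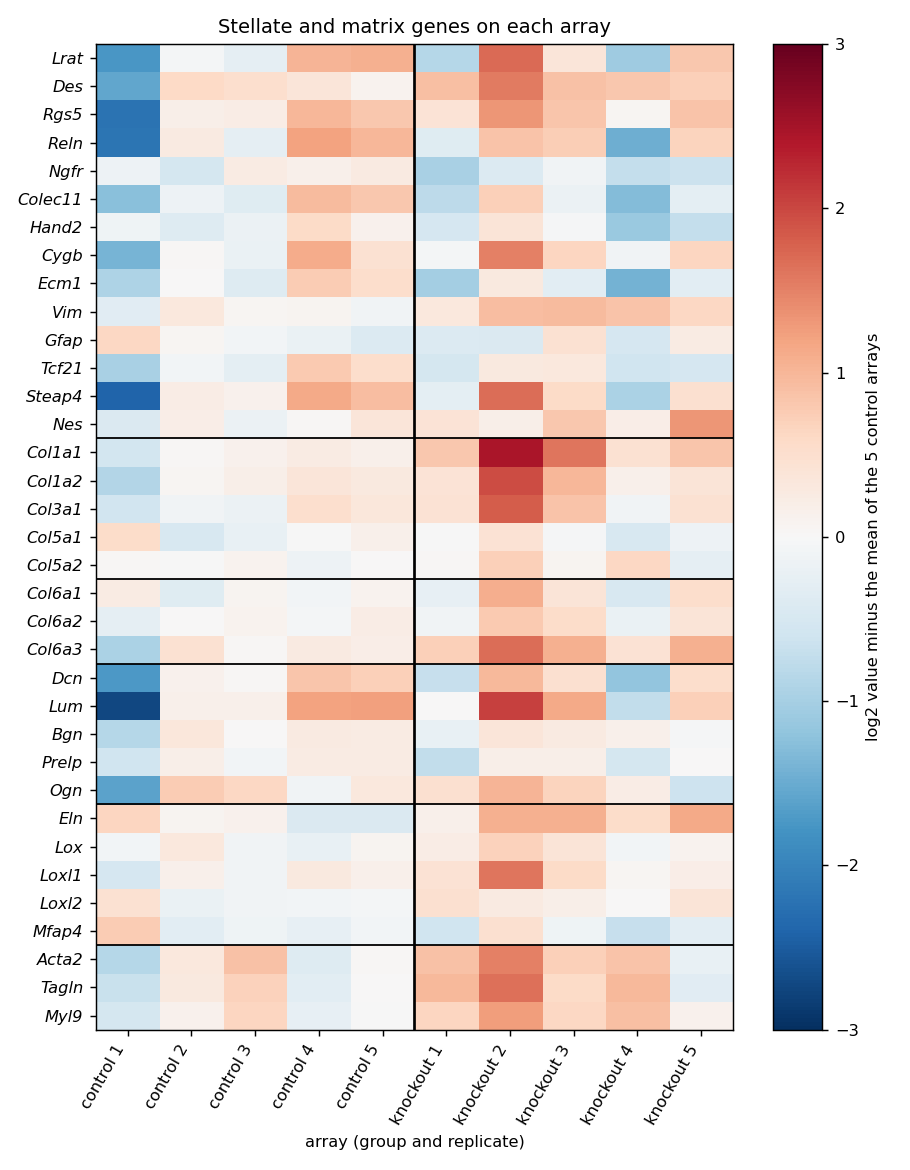
Log2 value of each of the 35 genes on each array, minus the mean of the 5 control arrays of that gene (red higher, blue lower, scale from -3 to 3), with lines between the roles. Control replicate 1 is blue in most stellate and proteoglycan genes, and knockout replicate 2 lies above the control mean in 33 of the 35 genes.

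Kupffer cell genes moved with the same arrays. Their mean was 5.45 in control replicate 1, against 6.95 to 8.27 in the other controls and 7.08 to 8.10 in the knockout. Control replicate 4 was the highest control array in all 10 of them, and none passed the threshold between the groups. Hepatocyte genes did not follow this order, with means of 6.82 to 7.18 in the controls and 6.62 to 8.04 in the knockout, where replicates 1 and 4 were high. Of these 11 genes, Tat passed higher and Cyp2e1 lower, and leaving out single arrays ended the call of Tat in 4 of 10 cases and that of Cyp2e1 in 5 of 10 (adjusted p up to 0.0596 and 0.0781). Cholangiocyte genes averaged 4.44 to 6.60 in the knockout and 3.44 to 4.48 in the control, and neutrophil genes 3.77 to 5.50 and 2.73 to 3.17, with the highest knockout mean of both in replicate 2, the array highest in Col1a1. Of 7 cholangiocyte genes 1 passed (Tm4sf4) and of 10 neutrophil genes 6, all higher. Without single arrays the call of Tm4sf4 ended in 5 of 10 cases, as did that of the neutrophil gene Retnlg, and that of Mmp8 in 8 of 10, while S100a8, S100a9, Ngp and Ltf passed in all 10. The part of these cells in the differences of the 35 genes was not tested.

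**Figure D4:**
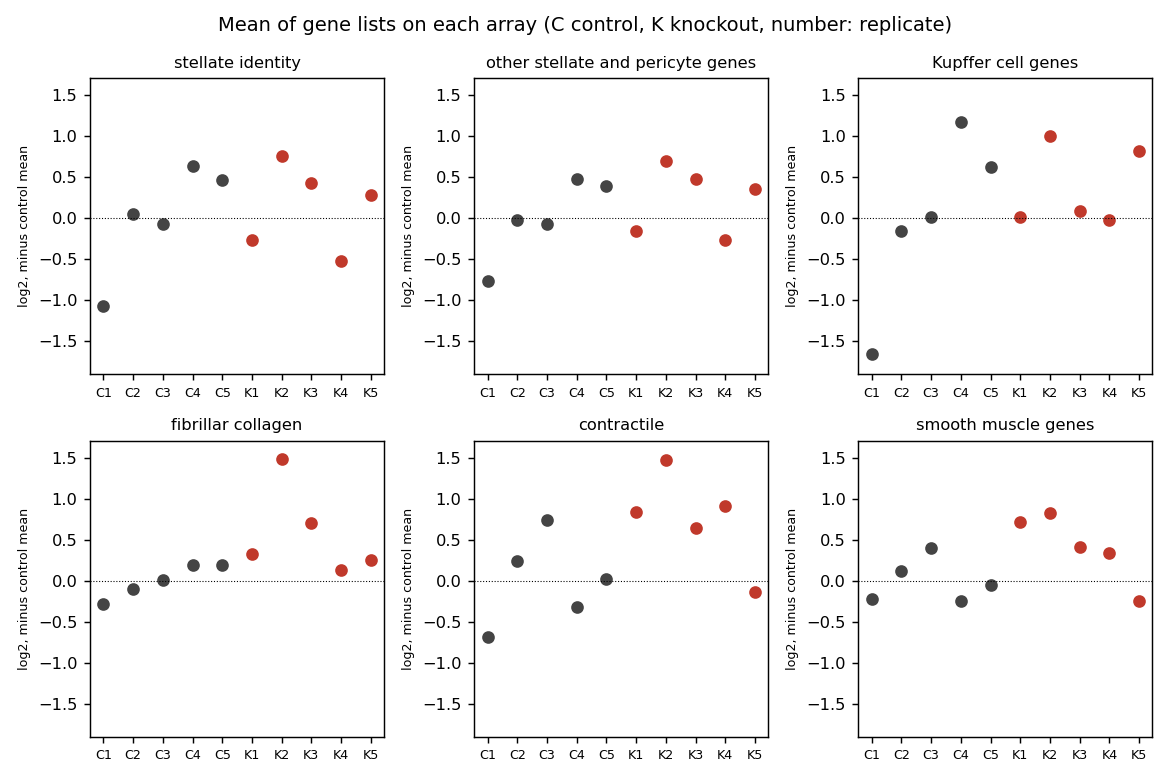
Mean log2 value of 6 gene lists on each array, minus the mean of the control group (C control, K knockout). The stellate, other stellate, Kupffer, fibrillar collagen and contractile lists have control replicate 1 as their lowest control array. The contractile and smooth muscle lists have control replicate 3 as their highest control array.

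Because stellate genes varied together from array to array, the groups were also compared in a fit that adjusts for the level of other stellate genes. This choice was made after the values were seen. The mean of 22 other stellate and pericyte genes, none of them in the list, was added to the fit as a covariate. Its knockout value was 6.24 ± 0.42 and its control value 6.02 ± 0.49 (SD, n = 5). In this fit 4 of the 35 genes passed, where 2.13% of all genes did (1.24% higher, 0.882% lower). Ecm1 was lower by -0.87 ± 0.12 (adjusted p = 0.00468 by limma) and Colec11 by -0.76 ± 0.14 (adjusted p = 0.0231), while Col6a3 (0.77 ± 0.16, adjusted p = 0.0338) and Vim (0.66 ± 0.15, adjusted p = 0.0497) were higher. Col1a1 was at 1.00 ± 0.23 with an adjusted p of 0.0543. Both genes that were lower belong to the stellate identity set.

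With control replicate 1 left out of the same fit, 5 of the 35 passed, where 2.73% of all genes did (1.49% higher, 1.25% lower). Ecm1 (-0.83, adjusted p = 0.00410) and Colec11 (-0.73, adjusted p = 0.0262) were again lower and Col6a3 (0.73, adjusted p = 0.0341) again higher. Col1a1 (1.05, adjusted p = 0.0353) and Eln (0.95, adjusted p = 0.0492) passed as well, and Vim did not (adjusted p = 0.0559). In the fit on all arrays the 14 stellate identity genes had no common direction, with 5 above 0 and 9 below. Above 0 lay Vim, Des (0.75), Nes (0.49), Rgs5 (0.27) and Cygb (0.15), and below 0 lay, among others, Lrat (-0.35) and Reln (-0.47). Of these Vim alone passed. Of the 22 covariate genes 2 themselves passed between the groups. At an unadjusted p of 0.05 by limma, 6 were higher and 1 lower in the knockout. The covariate is therefore not free of the comparison. Its mean was also higher in the knockout, so this fit lowers the difference of any gene that rises with it.

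**Figure D5:**
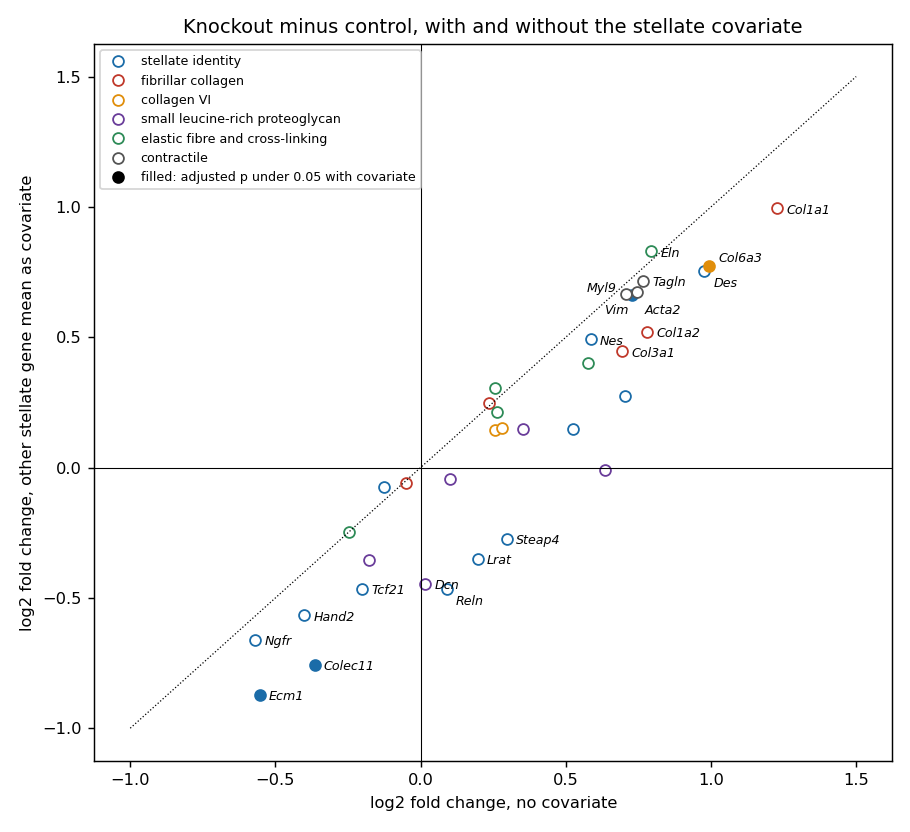
Log2 fold change of each of the 35 genes without (horizontal axis) and with (vertical axis) the mean of other stellate genes as a covariate; the dotted line marks equal values and filled points passed with the covariate. Of the 14 stellate identity genes 13 lie under the line, and Ecm1 and Colec11 have the lowest values with the covariate. Eln, the contractile genes and Vim stay near the line. The covariate mean was higher in the knockout (6.24 against 6.02 in the control). A gene that rises with it from array to array therefore falls under the line by arithmetic.

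Other genes of the same cell and pathway, none of them in the list, were counted for comparison. Of the 22 stellate and pericyte genes, 13 lay above 0 and 9 below. Only 2 passed, both higher, where 1.30% of all genes passed higher. They were Fstl1, a secreted follistatin-like protein of mesenchymal cells (1.05 ± 0.20, adjusted p = 0.0207), and Cspg4, the pericyte proteoglycan NG2 (0.70 ± 0.15, adjusted p = 0.0398). The group values separated upward in 2 of the 22 and downward in 1, where 2.55% and 2.37% of all genes did. The gene separated downward was Itga8 (-0.41 ± 0.12, adjusted p = 0.122 by limma). The call of Cspg4 held without knockout replicate 3 or control replicate 2 and ended without each of the other 8 arrays (adjusted p up to 0.106), and that of Fstl1 when knockout replicate 2, control replicate 4 or control replicate 5 was left out (up to 0.0620). Among 20 genes of collagen processing 1 rose, Bmp1, the protease that removes the C-propeptide of fibrillar procollagens. Its knockout mean was 5.42 ± 0.30 and its control mean 4.46 ± 0.19 (SD, n = 5), a log2 fold change of 0.96 ± 0.15 (adjusted p = 0.00752), and passed without any single array. The remaining 19, which include the prolyl and lysyl hydroxylases and the collagen chaperone Serpinh1, did not pass, and the median of the list was -0.04.

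Of 21 further fibril and microfibril genes, Fbln2, the elastic fibre protein fibulin 2, rose 2.80-fold (1.49 ± 0.23, adjusted p = 0.00666) and passed without any single array. The other 20 did not pass. Without control replicate 1, 2 genes passed in each of the collagen processing and the fibril lists. Among 14 portal fibroblast and mesothelial genes 3 rose, namely Pi16 (1.44 ± 0.23, adjusted p = 0.00850), the transcription factor gene Wt1 (0.91 ± 0.17, adjusted p = 0.0184) and Gpm6a (0.87 ± 0.20, adjusted p = 0.0467). Pi16 passed without any single array, Wt1 no longer passed when control replicate 4 or 5 was left out (up to 0.0578), and the call of Gpm6a held only without control replicate 1 or 2 (up to 0.119 otherwise). Other genes of these cells did not pass: Dpt, a portal fibroblast matrix gene, was at 0.38 ± 0.52 and Msln, the mesothelial marker mesothelin, at 0.05 ± 0.27. Of the 14 genes 10 lay above 0 and 4 below, the lowest being Gli1 (-0.40 ± 0.15, adjusted p = 0.252 by limma).

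Of 11 smooth muscle genes 2 rose, Cald1, caldesmon (0.61 ± 0.12, adjusted p = 0.0196), and Mylk, the myosin light chain kinase (0.63 ± 0.14, adjusted p = 0.0464). Cald1 no longer passed when knockout replicate 1 or 2, or any of control replicates 3 to 5, was left out (up to 0.0580), and Mylk without each array but knockout replicate 5 (up to 0.117). Of 11 sinusoidal endothelial genes, Clec4g (-0.76 ± 0.14) and Mrc1 (-0.57 ± 0.13) fell. Both calls ended without knockout replicate 1 or 2, among others (adjusted p up to 0.107).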

How the data were processed

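RNA of 10 pools of 3 mice, 5 per group, was hybridised to 1-colour Affymetrix arrays. The deposited values are on a log2 scale and were made by the authors with RMA (background correction, quantile normalization, probe summary), per the submitters' processing notes; the sources used here do not give the probe mapping build or RMA version. Of 25428 probe sets, 24705 have 1 gene symbol in the platform annotation and 723 have none; 1 symbol had 2 probe sets, of which the brighter was kept, giving 24704 genes. Groups were compared with limma 3.58.1 in R 4.3.3 on all genes, with Benjamini-Hochberg adjustment over all of them and a threshold of 0.05. P-values weigh the group difference against the spread between pools. The fit was tested on simulated data in which genes were drawn independently and no array stood apart. That test does not cover genes that vary together or an array like control replicate 1. All members and all companion lists (other stellate, collagen processing, fibril, portal fibroblast and mesothelial, smooth muscle, sinusoidal endothelial, hepatocyte, Kupffer, cholangiocyte and neutrophil genes) were chosen with earlier results of these data known. Genes outside the list were named where they passed the threshold, as defining markers, or to show a gene of a list that lay below 0. The latter 2 kinds were chosen after their values were seen. Alternatives were array weights, an intensity trend, a dim-gene filter (12390 genes kept), centring on bright genes, a replicate block, leaving out each array and, added later, the stellate covariate.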

Additional observations from a re-analysis of the deposited data

Results flagged for a closer look

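In each group of 5 arrays, a highest or lowest value was singled out when its gap to the next array exceeded 0.71 of the group's range (Dixon's criterion). Of 70 such groups 10 met it. A rate of about 1 in 20 would hold for independent, normally spread values. These genes share the same arrays, vary together and were chosen with earlier results of these data known. The count is therefore not weighed against that rate, and the share over all genes was not analysed here. Control replicate 1 was the lowest control array in 7: Des (3.59, next 5.24), Rgs5 (6.24, next 8.63), Steap4 (4.28, next 6.80), Col1a1 (5.17, next 5.75), Col1a2 (4.65, next 5.60), Lum (3.25, next 6.14) and Bgn (10.28, next 11.13). It was the highest in Loxl2 (6.85, next 6.33) and Mfap4 (5.80, next 4.94). Knockout replicate 2 was the highest knockout array for Des (6.70, next 6.04).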

How the results depend on the processing

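Of all genes, 529 passed; array weights gave 1070, the replicate block 275, and leaving out single arrays 287 to 737. Of the 35 genes 1 passed, against 2 with array weights, 4 with the stellate covariate, 5 with the covariate and 9 arrays, and 0 to 2 without single arrays. The replicate numbers did not pair the samples (correlations of same-numbered deviations -0.165 to 0.0389, none highest with its own number), and the block kept the call of Vim (adjusted p = 0.0271). Signs turned with array weights for Lrat (-0.31), Reln (-0.54), Steap4 (-0.29), Col5a1 (0.0626), Dcn (-0.46), Lum (-0.0168) and Bgn (-0.0735). With the covariate they turned for Lrat (-0.35), Reln (-0.47), Steap4 (-0.27), Dcn (-0.45), Lum (-0.0097) and Bgn (-0.0442). With the covariate and 9 arrays they turned for Lrat (-0.32), Reln (-0.52), Gfap (0.0242), Steap4 (-0.36), Col5a1 (0.0681), Dcn (-0.47), Lum (-0.12), Bgn (-0.12) and Ogn (-0.0497). Without single arrays the ranges crossed 0 for Lrat (-0.24 to 0.51), Reln (-0.46 to 0.48), Gfap (-0.27 to 0.0306), Steap4 (-0.30 to 0.61), Col5a1 (-0.17 to 0.087), Dcn (-0.41 to 0.32), Lum (-0.0485 to 0.98), Bgn (-0.11 to 0.19) and Ogn (-0.0496 to 0.60). The cause was not tested. Centring on bright genes moved the median of all genes by 0.00508. Precision is limited by 5 arrays per group and by 1 control array that stands apart.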
